A study of Mus musculus with 18 samples.

Results

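Adrenal glands of castrated male mice lacking Ephb6 were compared with those of castrated wild-type males. The comparison uses the 6 of 18 arrays whose titles carry both the castration and the Ephb6 genotype, 3 knockout (KO) and 3 wild type (WT). All mice were C57BL/6N and 2 months old. The labels give no time since castration, no sham operation, and no description of how Ephb6 was disrupted, so the controls share the castration and differ in genotype alone as far as the labels say. The other 12 arrays are intact males and females of both genotypes, 3 of each, and entered the same statistical fit. Total RNA of whole glands was hybridised to Illumina bead arrays. Samples carry numbers within a group, but no label says whether each came from a separate mouse or whether glands were pooled. The p-values below therefore rest on the spread among numbered samples, part or all of which may be technical.

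Ephb6 belongs to the Eph receptors, membrane proteins that bind ephrins on neighbouring cells, and it lacks kinase activity of its own. The adrenal gland joins a steroid-producing cortex to a medulla of chromaffin cells, which make adrenaline and noradrenaline from tyrosine and release them from granules when acetylcholine arrives from splanchnic nerves. Androgens from the testis shape the mouse adrenal: the X-zone, an inner cortical layer, regresses in males at puberty and is present in young females and in castrates. The comparison asks whether loss of Ephb6 changes adrenal gene expression when testicular hormones have been removed.

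The sequence before and around the start of the disrupted gene is shown first. In the RefSeq annotation of GRCm38.p6 the Ephb6 window from 250 bases before the gene's start to 50 bases after it is chr6:41605261-41605560 on the plus strand of chromosome 6.
Ephb6: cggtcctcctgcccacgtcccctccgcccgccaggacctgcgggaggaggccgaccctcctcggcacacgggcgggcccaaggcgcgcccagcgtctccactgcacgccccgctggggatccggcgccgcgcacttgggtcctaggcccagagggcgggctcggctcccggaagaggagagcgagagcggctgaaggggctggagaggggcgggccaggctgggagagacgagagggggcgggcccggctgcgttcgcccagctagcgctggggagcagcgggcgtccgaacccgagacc

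The labels were checked against the data before the comparison was made. Eif2s3y, a gene of the Y chromosome, was detected on all 3 arrays of each castrated group, and Xist, which silences an X chromosome in females, on 0. Akr1c18, the X-zone enzyme that inactivates progesterone, lay at 13.17 to 13.68 in normalized log2 intensity on castrated KO arrays and at 13.30 to 13.90 on castrated WT arrays. It was detected on 0 of 3 intact male arrays of either genotype, where it read 4.40 to 4.97. Wild-type castrated males thus exceeded wild-type intact males in Akr1c18 by 8.96 (limma adjusted p = 4.88e-13), taken against background in the intact males. Castrated KO array 1 was dim: its mean bead signal was 244, against 446 to 640 on the other 17 arrays, and 27.8% of its probes were detected, against 34.6% to 37.9%. Its mean correlation with its own group was 0.949, against 0.969 to 0.986 for the other 5 castrated arrays. In 62.5% of genes it was the array farthest from its group's mean among the castrated KO arrays. Many of the values below are therefore also given without it.

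Ephb6 RNA was low on every castrated KO array. On the normalized log2 scale the Ephb6 probe read 5.51, 5.34 and 5.21 on the KO arrays and 6.68, 6.82 and 6.78 on the WT arrays. The groups did not overlap, and the probe was detected on 0 of 3 KO arrays and 3 of 3 WT arrays. The means were 5.35 ± 0.15 (SD, n = 3) and 6.76 ± 0.07 (SD, n = 3), a difference of -1.41 (SE 0.26), or at least 1.82-fold lower in knockouts. Here and below, an "at least" fold sets the brighter group's mean against, on each dim array, whichever is higher, the reading of the probe itself or the dimmest reading among detected probes. Adjusted over all genes the limma p was 0.386, so Ephb6 did not pass the threshold of 0.05. An exact two-sided permutation test of the 6 arrays gave p = 0.1, the smallest value that 20 arrangements allow. Without KO array 1 the difference was -1.51 (adjusted p = 0.754). With arrays weighted by their quality in limma, Ephb6 passed (-1.47, adjusted p = 0.0172), and it was the 1 gene of 10375 that did. In intact males the same difference was -0.55, with overlap between the groups, and in females -1.47. The probe was detected on 2 of 3 intact male KO arrays and on 1 of 3 female KO arrays. The probe lies near background, and the sources used here do not say whether it targets the disrupted exons, which makes it a limited check of the genotype.

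**Figure D1:**
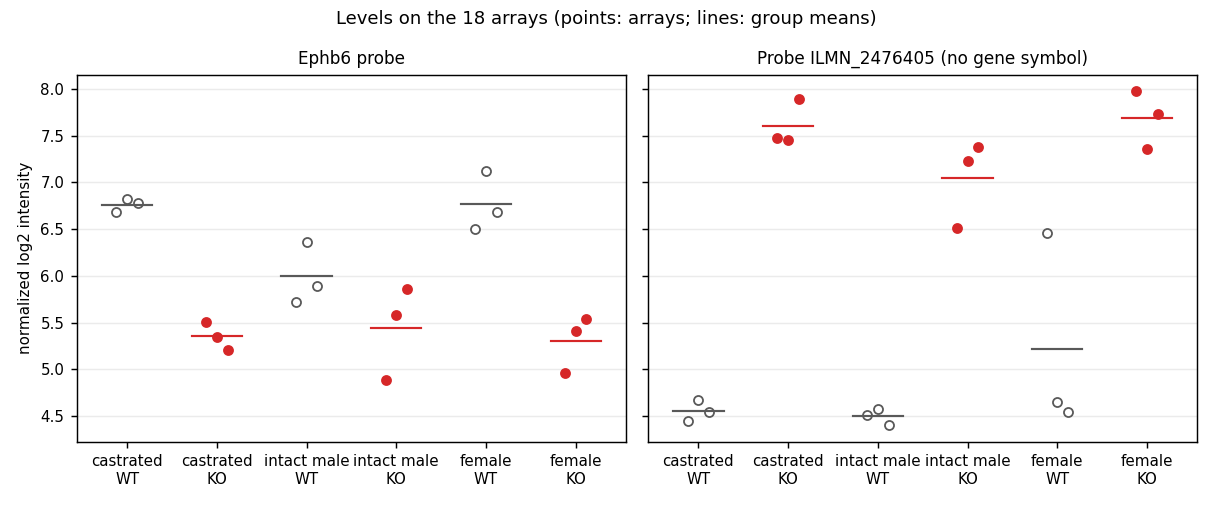
Normalized log2 intensity of the Ephb6 probe (left) and of probe ILMN_2476405 (right) on the 18 arrays, with points for arrays and lines for the means of 3 arrays. In castrated mice the Ephb6 points of the knockouts lie at 5.21 to 5.51 below the wild-type points at 6.68 to 6.82, and the points of the other probe lie at 7.45 to 7.89 in knockouts above 4.45 to 4.67 in wild type.

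The clearest difference between the castrated groups was in a probe that the platform annotation pairs with no gene symbol, ILMN_2476405. It read 7.48, 7.45 and 7.89 on the KO arrays and 4.45, 4.67 and 4.55 on the WT arrays. All 3 KO arrays detected it and 0 of 3 WT arrays did. The difference was 3.05 (SE 0.37), or at least 3.98-fold higher in knockouts, with a limma adjusted p of 0.00333 over all 18158 probes that passed the filter. It was the 1 probe that passed among them (0.00551%). Without KO array 1 the difference was 3.16 (adjusted p = 0.0204). The same probe was detected on 9 of 9 KO arrays of the series. In intact males it differed by 2.55 (adjusted p = 0.0404) and in females by 2.47 (adjusted p = 0.0590), where wild-type female array 1 also detected it, at 6.46. The castrated difference did not exceed that of intact males (0.50, SE 0.53, adjusted p = 0.975) or that of females (0.58, SE 0.53, adjusted p = 0.927) beyond its error. Its sequence and target were not analysed here, and its signal therefore carries no gene name.

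Among probes with a gene name, no gene passed in castrated mice. Of 10375 genes, 0 (0%) had a limma adjusted p under 0.05, and the lowest adjusted p was that of Ephb6. An unadjusted p under 0.05 was reached by 651 genes, 339 higher in knockouts (3.27%) and 312 lower (3.01%), where 519 of all genes are expected at that level when nothing differs. The 3 KO arrays lay wholly above the 3 WT arrays in 727 genes (7.01%) and wholly below them in 439 (4.23%). Without KO array 1 the number that passed was again 0, and 294 genes reached an unadjusted p under 0.05, 145 higher (1.40%) and 149 lower (1.44%). Of the 651 genes, 150 were also among these 294, all in the same direction, which is 23% of the former and 51.0% of the latter. The median standard error of a difference was 0.21, so a gene of median spread carried a 95% interval of 0.43 on either side of its estimate. The fit pools the spread of all 6 groups, so this interval does not measure that of the castrated arrays alone. The SD of residuals was 0.43, 0.26 and 0.26 on the castrated KO arrays and 0.20 to 0.21 on the castrated WT arrays. For a gene of median spread, differences smaller than 0.43 were not resolved by 3 arrays a group. No larger difference passed after adjustment either, that of Ephb6 (-1.41) included. The median difference over all genes was 0.01.

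**Figure D2:**
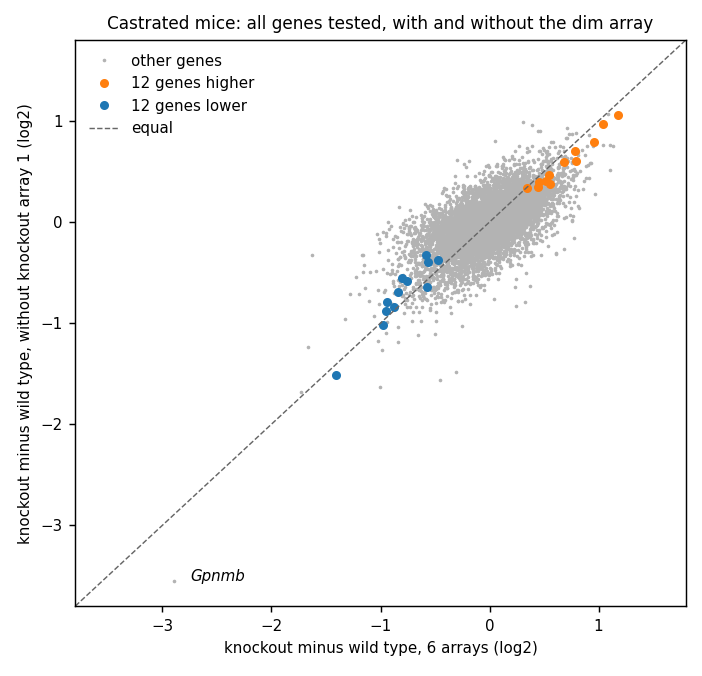
Knockout minus wild type (log2) for each of the 10375 genes in castrated mice, with all 6 arrays (horizontal) and without KO array 1 (vertical), where the dashed line marks equal values. The 24 genes named from the ranking, Ephb6 among them, keep their sign on both axes, which their choice by groups that do not overlap nearly ensures. Gpnmb, at -2.90 and -3.55, lies farthest from 0.

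The 12 higher genes with the smallest p-values among those whose groups did not overlap were chosen on this same contrast, so their values are a description. They were Uaca, Malt1, Cldn7, Rhobtb2, Bcl11a, Cpped1, Cul7, Kctd1, Ica1, Zfp768, Stxbp4 and Kcnk3, with differences from 0.35 to 1.18 and adjusted p-values from 0.656 to 0.751. Cldn7, a claudin of epithelial tight junctions, read 7.02, 6.31 and 6.95 on the KO arrays and 5.76, 5.24 and 5.76 on the WT arrays. KO array 2 was the lowest knockout yet still above every wild type. The difference was 1.18 (SE 0.26), and 1.06 without KO array 1. Malt1, the paracaspase that relays antigen receptor signals to NF-kB, read 6.49, 6.24 and 6.16 against 5.21, 5.36 and 5.19. It was detected on 2 of 3 KO arrays and on 0 WT arrays, which makes it at least 1.61-fold higher. Uaca, a coiled-coil and ankyrin-repeat protein, read 11.47, 10.97 and 10.98 against 10.46, 10.02 and 10.06. KO array 1 stood highest, and the difference of 0.96 (SE 0.20) was 0.79 without it.

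The other genes of the higher set have varied roles. Bcl11a, a zinc finger repressor known for silencing fetal globin, differed by 0.79 (SE 0.19), but its other probe differed by -0.02. Cul7, the scaffold of a ubiquitin ligase, read 10.62, 10.47 and 10.45 against 10.14, 10.00 and 10.04, a narrow spread in both groups. Rhobtb2 differed by 0.80 with the brightest probe and by 0.16 to 0.36 with the other 3. Stxbp4, a syntaxin-binding protein, differed by 0.54, and its other probes by 0.50 and -0.47, so they disagree in sign. Ica1, an autoantigen of islet cells found on secretory granules, differed by 0.52, against -0.11 for its other probe. Kcnk3, the TASK-1 potassium channel that sets the resting potential of cortical cells, read 12.91, 12.75 and 12.97 against 12.60, 12.51 and 12.48. Its groups were separate although the difference was only 0.35 (SE 0.10). In 11 of the 12 genes KO array 1 was the knockout farthest from the wild-type mean. Without that array all 12 remained higher in knockouts, which choosing genes whose groups did not overlap nearly ensures. In intact males 7 of the 12 were higher in knockouts and in females 6.

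The 12 lower genes chosen in the same way were Ephb6, Fcgr2b, Ly9, C1qb, Trappc3, Creb3l2, Selenof, Sirpb1a, Lyz2, Gpr183, Ggt7 and Cenpq, with differences from -0.47 to -1.41 and adjusted p-values from 0.386 to 0.751. Several are genes of immune cells. Fcgr2b, the inhibitory receptor for immunoglobulin G, read 6.21, 6.75 and 6.63 on the KO arrays and 7.33, 7.55 and 7.55 on the WT arrays. KO array 1 was lowest, and the difference of -0.94 (SE 0.23) was -0.79 without it. C1qb, a chain of complement C1q, read 10.36, 10.84 and 10.85 against 11.02, 11.38 and 11.34, a difference of -0.56 (SE 0.14). Lyz2, the lysozyme of macrophages and neutrophils, read 11.05, 11.31 and 10.99 against 11.99, 11.86 and 12.14. All 3 knockouts lay well below the wild types, and the difference was -0.88 (SE 0.24), with -0.24 for its other probe. Ly9, a surface receptor of the SLAM family on lymphocytes and myeloid cells, read 5.83, 5.66 and 5.85 against 6.70, 6.59 and 6.99. Gpr183, an oxysterol receptor that guides immune cells, differed by -0.84, and Sirpb1a, a signal-regulatory receptor of myeloid cells, by -0.95, each detected on 0 of 3 KO arrays and 2 of 3 WT arrays.

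The remaining genes of the lower set have varied roles. Trappc3, a subunit of the TRAPP vesicle-tethering complex, differed by -0.47 (SE 0.12), and its other 3 probes by -0.73 to -1.42. Selenof, a selenoprotein of the endoplasmic reticulum, read 11.15, 11.88 and 11.97 against 12.28, 12.31 and 12.17. KO array 1 was far below the other knockouts, and the difference of -0.59 was -0.33 without it. Creb3l2, a membrane-bound transcription factor that supports secretory capacity, read 8.19, 7.97 and 8.0 against 8.70, 8.52 and 8.66. Its difference of -0.57 (SE 0.15) was -0.64 without KO array 1, -0.06 for its other probe, -0.78 in intact males and 0.05 in females. Cenpq, a kinetochore protein, differed by -0.80, or -0.56 without KO array 1, and was detected on 1 of 3 KO arrays. Ggt7, a gamma-glutamyltransferase family member, differed by -0.75, or -0.58 without KO array 1, and was detected on 2 of 3 KO arrays. KO array 1 was the farthest knockout in 7 of the 12 lower genes. Without it all 12 remained lower, which the way they were chosen nearly ensures. In intact males 8 of the 12 were higher in knockouts rather than lower, and in females 6. Ephb6, Creb3l2 and Ica1 share chromosome 6. Leaving out Ephb6, 41 of 530 chromosome 6 genes (7.74%) had an unadjusted p under 0.05, against 6.18% of genes elsewhere. These shares were 4.91% (26 genes) and 2.71% without KO array 1.

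**Figure D3:**
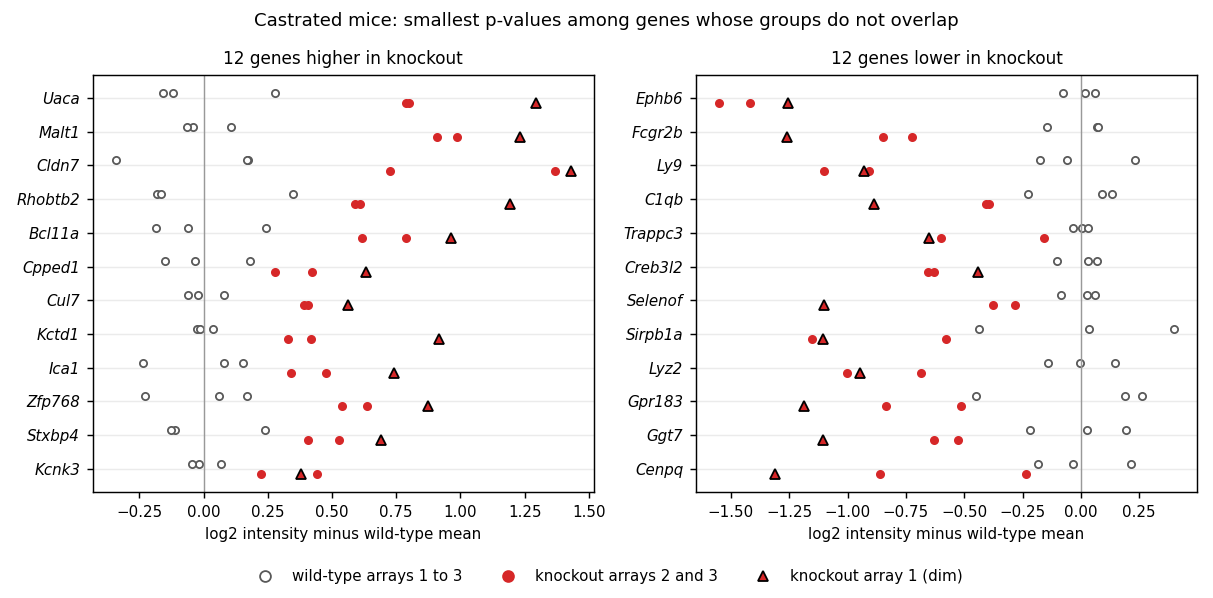
Each castrated array's log2 intensity minus the wild-type mean of that gene, for the 12 higher genes (left) and the 12 lower genes (right) with the smallest p-values among genes whose groups do not overlap. The dim KO array 1 (triangles) is the knockout farthest from wild type in 11 of the 12 higher and 7 of the 12 lower genes.

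Of the 10 catecholamine synthesis genes tested, 9 had a difference below 0 in castrated knockouts, though 0 passed by limma. Tyrosine hydroxylase (Th) makes L-DOPA and limits the rate of the pathway. Th read 11.91, 12.22 and 11.70 on the KO arrays and 12.73, 12.56 and 12.76 on the WT arrays. Every knockout lay below every wild type, with means of 11.94 and 12.68. The difference was -0.74 (SE 0.25, limma adjusted p = 0.751), and -0.72 without KO array 1. Ddc, which turns L-DOPA into dopamine, overlapped between the groups (-0.17, SE 0.27, and -0.29 without KO array 1). The other Ddc probes differed by -0.38 and -0.58. Dbh, which makes noradrenaline inside the granule, read 11.35, 11.37 and 10.89 against 11.64, 11.43 and 11.50, a difference of -0.32 (SE 0.22). The gap between its highest knockout and lowest wild type was small. Pnmt, which methylates noradrenaline to adrenaline and depends on cortical glucocorticoid, read 11.45, 12.59 and 12.43 against 13.12, 13.41 and 13.02. KO array 1 was well below the other knockouts, and the difference of -1.02 (SE 0.45) was -0.67 without it. Cyb561, which passes electrons into the granule for Dbh, read 12.18, 12.53 and 12.10 against 12.81, 12.56 and 12.84, a difference of -0.47 (SE 0.14).

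Of the enzymes that make or recycle tetrahydrobiopterin, the cofactor of Th, Pcbd1 read 6.74, 6.81 and 6.61 against 7.33, 7.32 and 7.28. Its groups were tight and apart, at -0.59 (SE 0.31). Gch1 (-0.03), Pts (0.15), Spr (-0.12) and Qdpr (-0.11) overlapped. Gch1 was at -0.25 and Pts at -0.07 without KO array 1. With all arrays the other probe of Gch1 differed by -0.28 and that of Pts by -0.18. Over the 10 genes the median difference was -0.25 against 0.01 for all genes. Of the 10, 9 were below 0. An unadjusted p under 0.05 on the lower side was reached by 3 (Th, Pnmt and Cyb561), as by 3.01% of all genes, and 5 lay wholly below wild type, as did 4.23% of all genes. Without KO array 1 all 10 were below 0 with a median of -0.34, and Th and Cyb561 kept an unadjusted p under 0.05. The medians in intact males and females were 0.08 and 0.25. In whole-gland RNA, fewer cells of a type and less RNA per cell cannot be told apart.

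The Th promoter is shown because Th is the rate-limiting step and its cAMP response element is a textbook example. In the RefSeq promoter table the window is chr7:142899946-142900245 on the minus strand of chromosome 7 (GRCm38.p6), and the letters TGACGTCA, searched on both strands, are in capitals.
Th: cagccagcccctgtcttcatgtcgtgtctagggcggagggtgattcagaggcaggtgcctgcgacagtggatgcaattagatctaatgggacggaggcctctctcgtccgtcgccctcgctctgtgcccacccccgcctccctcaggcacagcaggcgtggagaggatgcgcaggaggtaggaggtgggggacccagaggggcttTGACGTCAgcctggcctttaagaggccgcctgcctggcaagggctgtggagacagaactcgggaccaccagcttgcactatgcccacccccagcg
Of 8 catecholamine synthesis genes in that table, 1 held these letters, and 3.58% of the 8371 tested genes with a promoter did.

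In the other chromaffin lists 0 genes had an unadjusted limma p under 0.05 with all 6 arrays. When KO array 1 was left out, Chga, Chgb, Gal and Syt1 had one on the lower side and Rims2 on the higher side, where 1.44% and 1.40% of all genes had one. The 3 tested genes of catecholamine transport and breakdown had a median of -0.36, or -0.42 without KO array 1. Among them Maob, a monoamine oxidase, read 7.97, 8.48 and 7.98 against 8.75, 8.53 and 8.57, apart from the wild types by a narrow gap (-0.47, SE 0.25). Chgb, a granin that packs dense-core granules, read 14.24, 14.05 and 13.82 against 14.29, 14.14 and 14.36 (-0.22, SE 0.12). Its groups overlapped through KO array 1, and without that array the difference was -0.32. Chga, the other main granin, differed by -0.20, or -0.36 without KO array 1, and Scg2, secretogranin II, by -0.31. Other probes differed by -0.13 and -0.78 for Chga and by 0.01 for Scg2. Of the 10 granule genes 9 were below 0, with a median of -0.21 that depended on single arrays, at -0.31 without KO array 1 and -0.09 without KO array 3. The 6 medullary peptide precursors had a median of -0.13, or -0.39 without KO array 1. Among them Gal, the galanin precursor, read 11.95, 11.47 and 11.32 against 12.09, 12.03 and 11.66 (-0.35, and -0.53 without KO array 1), and Cartpt differed by -0.57 (SE 0.46). Lineage transcription factors overlapped between groups, led by Gata3 (-0.49, SE 0.28) and Isl1 (-0.32, SE 0.37, and -0.56 without KO array 1), with a median over 8 genes of -0.11, or -0.36 without KO array 1. In the exocytosis machinery, Rims2, a scaffold of release sites, read 9.03, 9.70 and 9.73 against 8.92, 9.0 and 8.85 and was the 1 of 18 members wholly above wild type (0.56, SE 0.30), as were 7.01% of all genes. The calcium sensors Syt7 (-0.46), Syt1 (-0.43) and Syt4 (-0.48) were lower, and the 18 genes had a median of -0.17, or -0.05 without KO array 1.

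Steroidogenic genes of the cortex had differences near 0. Star, which carries cholesterol into mitochondria, read 12.90, 13.20 and 12.97 on the KO arrays and 13.12, 12.86 and 13.03 on the WT arrays, a difference of 0.02 (SE 0.19). Cyp11a1, which makes pregnenolone, differed by -0.01 (SE 0.12). Cyp11b1, which makes corticosterone, differed by 0.01 (SE 0.09). Cyp11b2, the aldosterone synthase, read 8.18, 8.76 and 8.92 against 8.27, 9.02 and 8.42 (0.05, SE 0.37, and 0.27 without KO array 1), so its groups overlapped throughout. The median over 10 steroidogenesis genes was 0.01, and 0 had an unadjusted p under 0.05. These signs turn negative under median scaling, which moves the median of all genes to -0.26. In the zona glomerulosa list, the outer zone that makes aldosterone, Agtr1b, an angiotensin II receptor, read 8.20, 7.55 and 7.17 against 6.62, 6.97 and 6.21. All knockouts were above all wild types (1.04, SE 0.34), and 0.76 remained without KO array 1. Vsnl1, a calcium sensor of that zone, read 10.41, 10.20 and 10.13 against 9.26, 9.88 and 9.72 (0.63, SE 0.31). Of 12 zona glomerulosa genes 7 were above 0 and 5 below. Calb2 lay wholly below wild type (-0.76, SE 0.57), though 0 castrated arrays of either genotype detected it. Agtr1b and Kcnk3 were the 2 of 12 with an unadjusted p under 0.05 on the higher side, where 3.27% of all genes had one. The list's median was 0.10. That median was 0.29 without KO array 1 and -0.10 without WT array 1. In the X-zone, Akr1c18 differed by -0.25 (SE 0.31) and Pik3c2g, a lipid kinase, by -0.76 (SE 0.45), with overlap in both. Akr1d1 differed by 0.24 (SE 0.24), or 0.43 without KO array 1, also with overlap. Of 5 X-zone genes 2 were above 0, and the median of -0.25 became 0.03 without KO array 1.

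With all 6 arrays, cholesterol synthesis genes had the lowest median of the lists that belong to steroid or chromaffin cells, though not without KO array 1. In order of the pathway, Pmvk, phosphomevalonate kinase, read 7.50, 7.56 and 7.39 on the KO arrays and 8.22, 8.02 and 8.09 on the WT arrays. Both groups were tight and the difference was -0.63 (SE 0.20), or -0.64 without KO array 1. Fdps, which makes farnesyl diphosphate, read 12.69, 13.08 and 13.08 against 13.87, 13.30 and 13.64 (-0.66, SE 0.30). Sqle, squalene epoxidase, the first oxygenation step, read 9.72, 10.31 and 10.33 against 11.20, 10.59 and 11.07 (-0.83, SE 0.36). KO arrays 2 and 3 agreed closely and KO array 1 lay below both. Cyp51, which demethylates lanosterol, read 8.67, 9.37 and 9.66 against 10.35, 9.81 and 10.19 (-0.88, SE 0.36), or -0.60 without KO array 1. Nsdhl, a later sterol dehydrogenase, read 5.31, 7.50 and 7.20 against 8.30, 7.78 and 7.61. KO array 1 was far below the rest, and the difference of -1.23 (SE 0.42) was -0.55 without it.

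The lower group also held Msmo1 (-0.46), Hsd17b7 (-0.55), Lss (-0.53) and Stard4, a sterol carrier (-0.55), while Mvk (0.26), Tm7sf2 (0.08) and Insig1, a brake on the pathway (0.28), were above 0. With KO array 1 left out, Msmo1 was at -0.20, Lss at -0.35, Mvk at 0.12, Tm7sf2 at -0.12 and Insig1 at 0.04. The other probes of Insig1 were below 0, at -0.48 and -0.79. Dhcr7, which makes cholesterol itself, read 9.47, 11.33 and 11.08 against 11.32, 10.73 and 10.95. KO array 1 alone was low, and the difference of -0.37 became 0.21 without it. Over the 18 genes 15 were below 0, the median was -0.50, 6 had an unadjusted p under 0.05 on the lower side (3.01% of all genes had one) and 7 lay wholly below wild type (4.23% of all genes did). Without KO array 1 the median was -0.29 and 1 of the 6, Pmvk, kept an unadjusted p under 0.05. In intact males and females the medians were 0.24 and 0.01. By limma 0 of the 18 passed. Of the genes that take up and store cholesterol, Plin4, a lipid droplet coat protein, differed by -1.06 (SE 0.39) and Apoe, a carrier of lipids, by -0.39 (SE 0.18), and the median over 12 genes was -0.10, or -0.04 without KO array 1.

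Promoters of 2 of these genes are shown because NF-Y, which binds the CCAAT box, acts with SREBP2 at sterol genes. The windows are chr5:4104648-4104947 on the minus strand of chromosome 5 and chrX:72918271-72918570 on the plus strand of chromosome X (GRCm38.p6, RefSeq), with ATTGG and its reverse complement in capitals.
Cyp51: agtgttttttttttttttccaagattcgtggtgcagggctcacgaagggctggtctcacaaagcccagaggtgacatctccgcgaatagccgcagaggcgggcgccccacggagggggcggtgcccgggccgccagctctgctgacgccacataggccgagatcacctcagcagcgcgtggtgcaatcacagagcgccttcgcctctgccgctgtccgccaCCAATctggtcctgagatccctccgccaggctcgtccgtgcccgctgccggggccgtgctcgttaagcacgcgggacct
Nsdhl: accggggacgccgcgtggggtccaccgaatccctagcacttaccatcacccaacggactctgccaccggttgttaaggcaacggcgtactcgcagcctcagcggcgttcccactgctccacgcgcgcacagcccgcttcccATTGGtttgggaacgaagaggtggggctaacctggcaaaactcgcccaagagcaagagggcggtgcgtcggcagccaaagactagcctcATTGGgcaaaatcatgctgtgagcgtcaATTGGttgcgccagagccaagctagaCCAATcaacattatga
These letters were found in all 15 of the 18 cholesterol synthesis genes that the promoter table holds, and in 42.8% of the 8371 tested genes with a promoter. The 15 include Mvk, Tm7sf2 and Insig1, which were above 0, and lack Fdps, Sqle and Stard4, which were below 0. The match is by letters only, and the motif was chosen after the values were seen.

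Of 20 genes of the macrophage, complement and Fc receptor list, 20 had a mean difference below 0, from -0.94 to -0.01, with a median of -0.33. An unadjusted p under 0.05 on the lower side was reached by 7 of the 20, as by 3.01% of all genes, and 7 lay wholly below wild type, as did 4.23% of all genes. Besides Fcgr2b, C1qb and Lyz2, described above, C1qc read 9.72, 10.24 and 9.80 against 10.30, 10.44 and 10.46 (-0.48, SE 0.16). Fcer1g, the signalling chain of Fc receptors, read 10.70, 10.59 and 10.42 against 10.73, 10.98 and 11.01 (-0.34, SE 0.14). Lyz1 differed by -0.48 (SE 0.18) and by -0.65 without KO array 1. Fcgr3, an activating Fc receptor, differed by -0.59 (SE 0.26). Csf1r, the receptor for the macrophage growth factor, differed by -0.14 (SE 0.16), and by -0.68 with its other probe. Adgre1, a surface marker of macrophages, differed by -0.07 (SE 0.31), by -0.50 without KO array 1 and by -0.50 with its other probe. Mrc1, the mannose receptor, differed by -0.16 (SE 0.17). KO array 1 lay above every wild type in Adgre1 (7.18), Tyrobp (8.26) and Aif1 (8.0), and the other probe of Aif1 was at 0.13. Ms4a7 differed by -0.55, or -0.85 without KO array 1.

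Without the dim array the macrophage list had a median of -0.38 and all 20 genes were below 0. An unadjusted p under 0.05 was again reached by 7 on the lower side, with Ms4a7 in place of Fcgr3. Members moved both ways: Lyz1, Adgre1 and Ms4a7 went further below 0, as given above. Nearer to 0 were C1qb (-0.56 to -0.40), C1qc (-0.48 to -0.38), Fcgr3 (-0.59 to -0.45) and Cd14 (-0.39 to -0.19). Averaged over the 20 genes, the level was 8.42, 8.41 and 8.30 on the KO arrays and 8.56, 8.81 and 8.84 on the WT arrays, so the groups did not overlap. This was not particular to the macrophage list. Array means were also apart for the catecholamine synthesis, cholesterol synthesis, liver, and glutathione and xenobiotic lists, among others, and on the higher side for the endothelial list. By limma 0 of the 20 passed. In intact males the list's median was 0.08 and in females -0.03. Genes of class II antigen presentation were below 0 in 8 of 8, with a median of -0.37, or -0.23 without KO array 1. That median was -0.73 without WT array 1 and -0.13 without WT array 2, and it was 0.14 in intact males and -0.64 in females. Among them H2-DMa read 8.35, 8.98 and 8.34 against 8.59, 9.34 and 9.20, and Cd74, the invariant chain, read 11.41, 12.42 and 12.13 against 11.74, 12.93 and 12.98, with overlap in both. Cd74 differed by -0.56, or -0.28 without KO array 1. Both lists' wild-type arrays were uneven, with WT array 1 the lowest. The lymphocyte list had a median of 0.04, with 5 of 10 genes above 0.

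**Figure D4:**
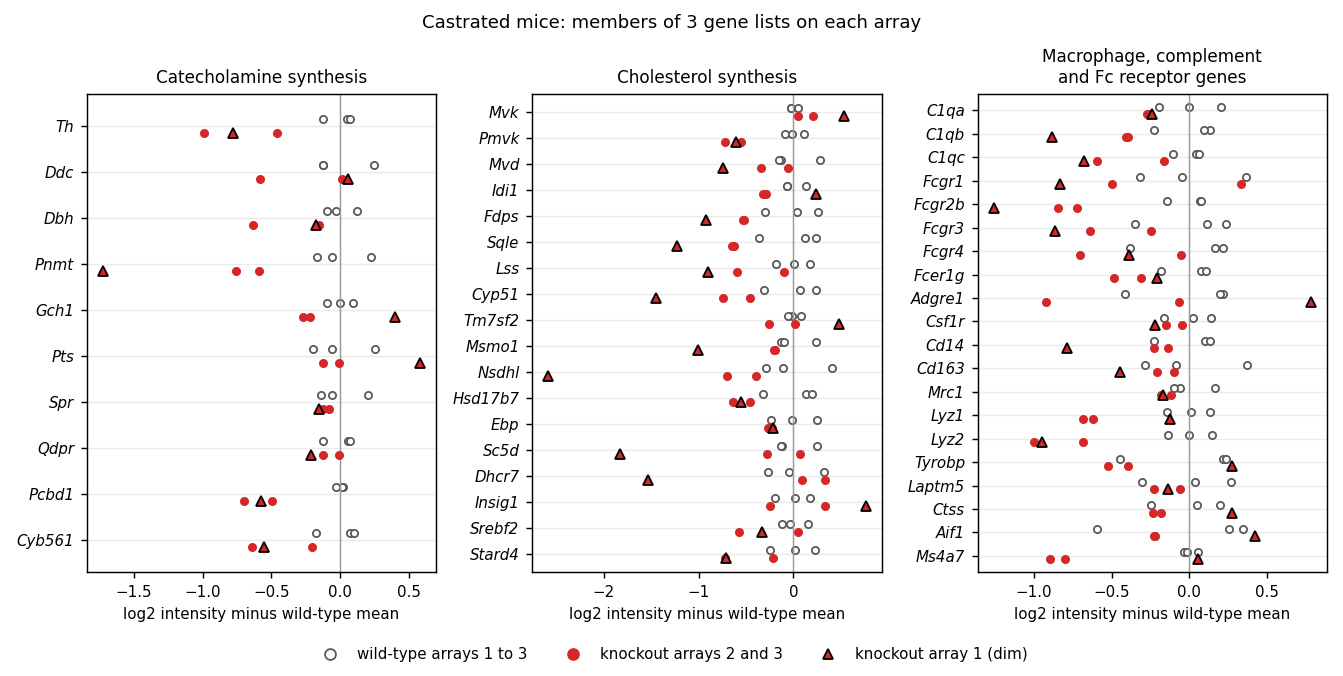
Each castrated array's log2 intensity minus the wild-type mean for the tested members of the catecholamine synthesis (10 genes), cholesterol synthesis (18 genes) and macrophage (20 genes) lists. The dim KO array 1 (triangles) lies far to the left in Pnmt, Nsdhl, Sc5d and Dhcr7, whereas KO arrays 2 and 3 are the lower knockouts in Lyz1 and Ms4a7.

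Genes of other tissues were examined because dissected adrenals can carry neighbouring tissue. Of 9 liver genes tested, 9 were below 0, with a median of -0.68, or -0.53 without KO array 1. Their mean level was 6.92 to 7.44 on the KO arrays and 7.49 to 8.65 on the WT arrays, the highest being WT array 2. Apoa2, an apolipoprotein, read 4.92, 5.16 and 6.92 against 6.27, 8.58 and 6.13, and Trf, transferrin, read 9.60, 9.99 and 9.57 against 10.30, 10.39 and 10.42. The 10 adipose genes had a median of -0.28 and a mean level of 6.73 to 7.82 on the KO arrays and 6.81 to 8.0 on the WT arrays. Kidney genes had a median of 0.26 over 4 genes, which turned to -0.04 without KO array 1, and endothelial genes 0.08 over 17. The 5 tested epithelial and tight junction genes, Cldn7 among them, had the highest median of the lists, 0.54, or 0.16 without KO array 1. Their mean level was 7.05, 6.46 and 6.39 on the KO arrays, KO array 1 being highest, and 5.99, 6.12 and 6.44 on the WT arrays. The part of these markers in the other differences was not tested. Immediate early genes, which respond to handling within minutes, averaged 10.15, 8.71 and 8.77 on the KO arrays and 8.92, 8.22 and 9.52 on the WT arrays. KO array 1 was the highest of the 6, and the list's median of 0.22 was -0.19 without it.

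Among stress, immune response and division genes 0 passed by limma. At an unadjusted p under 0.05, 3 of 18 unfolded protein response genes were lower, beside 3.01% of all genes. Without KO array 1 that count was 0, beside 1.44%. Of 15 glucocorticoid-induced genes 2 were lower and 1 higher (3.27% of all genes), or 1 and 0 without KO array 1. Of 18 proliferation genes 3 lay wholly above wild type, as did 7.01% of all genes. Bst2, an interferon-induced membrane tether, read 9.50, 9.77 and 9.87 against 9.17, 9.49 and 9.0 (0.50, SE 0.17, and 0.60 without KO array 1). Gbp2, an interferon-induced GTPase, was on the lower side (-0.43, SE 0.16). The interferon list had 2 of 19 genes higher and 1 lower at an unadjusted p under 0.05, beside 3.27% and 3.01% of all genes. Mt1, a metallothionein induced by glucocorticoid and zinc, read 13.70, 13.76 and 13.60 against 14.20, 13.97 and 14.17 (-0.43, SE 0.15), the same without KO array 1. Tsc22d3, the glucocorticoid-induced leucine zipper, read 10.02, 11.36 and 11.15 against 11.43, 11.38 and 11.71. KO array 1 set most of its difference, -0.66 with that array and -0.25 without. Cat, catalase, read 7.55, 8.52 and 8.62 against 8.94, 8.88 and 8.91 (-0.68, SE 0.23, and -0.34 without KO array 1). Fmo1, a flavin monooxygenase, differed by -0.62 and Calr, the chaperone calreticulin, by -0.68, or -0.22 without KO array 1. Among division genes Aurka, a mitotic kinase, read 7.23, 6.61 and 6.61 against 5.84, 6.24 and 6.39, and the proliferation list had a median of 0.16 over 18 genes.

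Ephb6 was the Eph receptor with the largest difference. Of 13 Eph receptors on the array, 7 were tested, and apart from Ephb6 0 had an unadjusted p under 0.05. Epha2 read 5.43, 7.06 and 6.91 against 6.46, 7.25 and 7.01, and Epha3 read 7.21, 6.16 and 5.26 against 5.89, 5.59 and 6.06. KO array 1 stood apart in both, and their differences of -0.44 and 0.36 turned to 0.08 and -0.14 without it. Efna1, a ligand of the EphA class, read 8.22, 7.24 and 7.22 against 6.88, 7.10 and 6.67 (0.68, SE 0.24, and 0.35 without KO array 1). Efnb1, a ligand of the EphB class, overlapped between the groups (0.08, SE 0.16, and negative under median scaling, with array weights and without KO array 1). The 24 signalling partners of Eph receptors and ephrins had a median of -0.02, with 0 genes at an unadjusted p under 0.05.

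**Figure D5:**
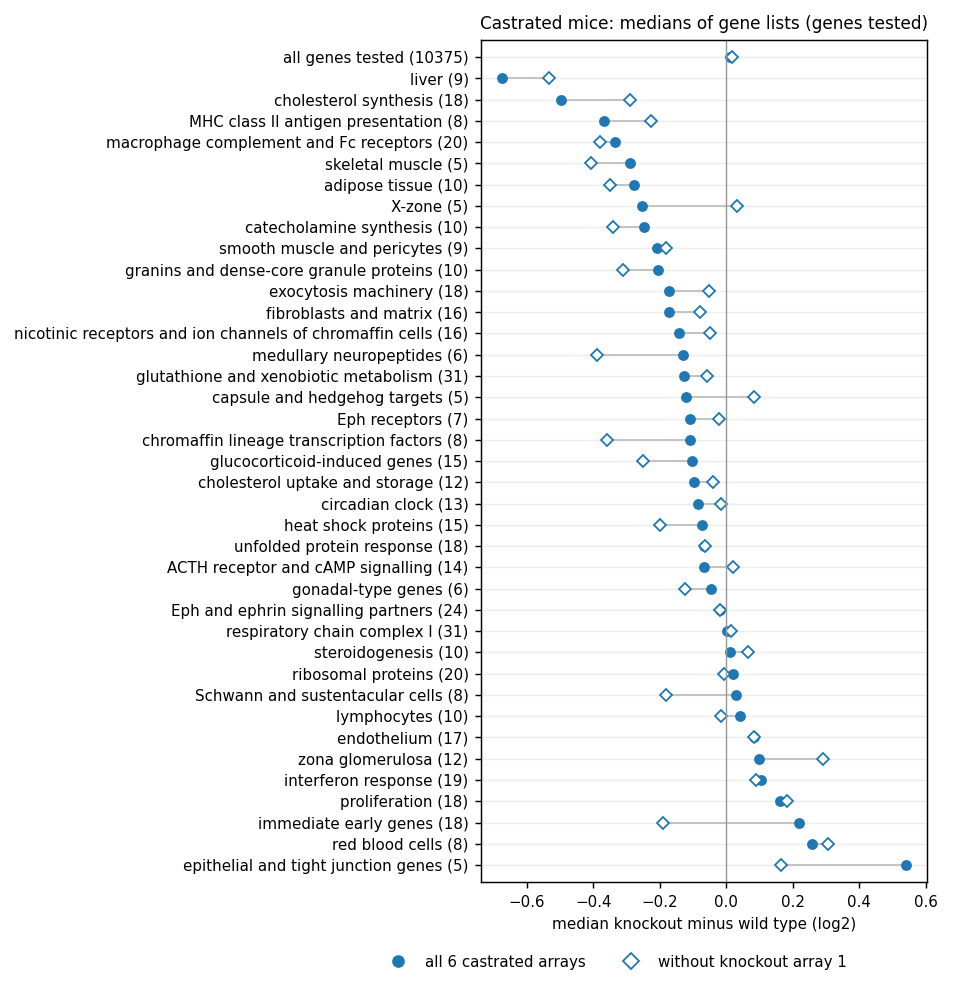
Median knockout minus wild type (log2) in castrated mice for each list with at least 5 genes tested, with all 6 arrays (filled circles) and without KO array 1 (open diamonds). The liver (-0.68), cholesterol synthesis (-0.50), class II (-0.37) and macrophage (-0.33) lists have the lowest medians, and immediate early genes go from 0.22 to -0.19.

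Whether the knockout effect of castrated mice differed from that of intact males or females was tested gene by gene. By limma 0 of 10375 genes passed in either test. An unadjusted p under 0.05 was reached by 417 genes (4.02%) against intact males, with a lowest adjusted p of 0.966, and 460 genes (4.43%) against females, with a lowest adjusted p of 0.911. The median 95% interval of such a difference was 0.61 on either side. Cldn7 had the smallest p in both: its knockout effect of 1.18 in castrated mice stood against -0.57 in intact males and -0.44 in females, differences of 1.74 and 1.61 (SE 0.37 each). Npr1, the receptor for atrial natriuretic peptide, read 7.28, 7.0 and 6.72 against 6.45, 6.53 and 6.49 in castrated mice, an effect of 0.51 against -0.55 in intact males. Fcgr2b, at -0.94 in castrated mice, was at 0.31 in intact males, a difference of -1.25 (SE 0.33). Against females, Tnfrsf21, a death receptor, differed by -1.44 and Aurka by 1.31. Without KO array 1 the castrated effects of Npr1, Tnfrsf21 and Aurka were 0.37, -0.52 and 0.46, against 0.51, -0.80 and 0.66 with it. The Tnfrsf21 probe was detected on 1 of 3 castrated KO arrays. The genes named for these differences were picked by the test itself and none passed it. Among wild types, 551 genes were higher in females than in intact males. Of these, 5.63% were higher in castrated knockouts at an unadjusted p under 0.05 and 3.27% lower, beside 3.27% and 3.01% of all genes, with a median of 0.02. Of the 500 genes lower in females, 3.2% were higher in castrated knockouts and 1.8% lower, with a median of 0.04.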

How the data were processed

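Per the labels' protocols, adrenal RNA was extracted with an RNeasy kit, its quality was read on a Bioanalyser, and biotin-labelled cRNA was made from it. The deposited table gives, per the file headers, the average bead intensity and a detection p-value of 45281 probes per array, before any normalization between arrays. The submitters' processing notes name GenomeStudio without a version. The authors' normalized intensities, deposited as a second table, served as an alternative. No slide or scan is named, so no slide effect could be fitted. Precision is limited by having 3 arrays a group.

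The neqc function (limma 3.58.1, R 4.3.3) corrected the background and set the arrays to common quantiles (offset 16, negative controls inferred from detection p-values). Probes were kept if at least 3 arrays gave a detection p under 0.01, which left 18158, of which 15717 had 1 symbol in the platform annotation. The brightest probe of each of 10375 genes was tested, and 3775 genes had several probes. The 2441 probes without a single symbol were tested apart and together with all probes. A single limma fit of 18 arrays in 6 groups (12 residual degrees of freedom, intensity trend) gave knockout minus wild type in castrated mice and its differences from intact males and females, with Benjamini-Hochberg adjustment and a threshold of 0.05. The fit recovered planted changes when tested on simulated data. There each gene had the same spread on all arrays and no array was dim. The check therefore does not say how many changes the fit would find on the real arrays.

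Named were Ephb6, the main enzymes of catecholamine synthesis (Th, Ddc, Dbh, Pnmt), those of the cortex (Cyp11a1, Cyp11b1, Cyp11b2, Star, Akr1c18), and the 12 higher and 12 lower genes with the smallest p among those whose groups did not overlap. Up to 4 genes of each list described and the 3 leading genes of each difference test were also named. More members were named for the catecholamine synthesis, cholesterol synthesis and macrophage lists. The members, the 44 gene lists and the tests were chosen with earlier results of these data known. Lists are described by counts and medians, with no test of a list. Alternatives were the background correction, scaling, filter, castrated arrays alone, array weights, the trend, robust eBayes, the mean of probes, each castrated array left out and a replicate block. Replicate numbers did not pair the castrated samples: deviations of same-numbered arrays correlated at -0.01, 0.02 and -0.12.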

Additional observations from a re-analysis of the deposited data

Results flagged for a closer look

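Probe ILMN_2476405 was flagged as a signal outside the named genes. It has no gene symbol in the platform annotation, and in castrated mice it differed by 3.05 on the log2 scale between knockout and wild type, with 0 of 3 wild-type arrays detecting it. It passed under each alternative tried, with adjusted p-values over all probes of 0.0204 to 0.0452 when each castrated array was left out in turn. The difference was 1.26 with the authors' normalized intensities and 1.23 with no background corrected. Its target was not analysed here.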

How the results depend on the processing

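By limma 0 genes passed in castrated mice, and in both differences of knockout effects, under each alternative except array weights, under which 1 gene passed in castrated mice, Ephb6 (-1.47, adjusted p = 0.0172), and 2 probes of all probes. The count at an unadjusted p under 0.05, 651, was 342 with median scaling and 1241 with no filter. It ran from 294 to 1282 when each castrated array was left out in turn: 294 without KO array 1, 1282 without KO array 2, 1092 without KO array 3 and 412 without WT array 3. Ephb6 differed by -0.51 without background correction, by -0.53 in the authors' values and by -1.51 to -1.34 when each array was left out, and with the replicate block by -1.41 (adjusted p = 0.197), which changed no call. ILMN_2476405 passed with the replicate block too (adjusted p = 0.0127).

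Under median scaling the overall median went from 0.01 to -0.26, and the medians of the catecholamine, cholesterol and macrophage lists to -0.55, -0.75 and -0.62, still below that shift. With each castrated array left out these medians ran from -0.34 to -0.17, from -0.59 to -0.29 and from -0.43 to -0.26. Signs turned for the genes below, some of them not near 0 with all arrays (Epha2 -0.44, Dhcr7 -0.37, Slc18a2 -0.36, Epha3 0.36 and Insig1 0.28), and the cause was not tested. With median scaling they were Star -0.26, Cyp11b1 -0.21, Cyp11b2 -0.28, Hsd3b1 -0.041, Efnb1 -0.21, Efna4 -0.0071, Pts -0.13, Mvk -0.066, Tm7sf2 -0.24 and Insig1 -0.084. With array weights they were Epha2 0.048, Epha3 -0.14, Efnb1 -0.020, Efna5 0.061, Pts -0.019, Tm7sf2 -0.078 and Dhcr7 0.075. With the mean of a gene's probes they were Pts -0.013, Insig1 -0.33 and Aif1 0.060. Adgre1 was at 0.0036 without background correction and 0.0015 in the authors' values. Without KO array 1 and female KO array 1 together, a setting added after the data were seen, they were Epha2 0.079, Epha3 -0.14, Efnb1 -0.072, Efna5 0.068, Pts -0.068, Tm7sf2 -0.12 and Dhcr7 0.21, and Star was at 0.077.

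With each castrated array left out in turn, the differences ran as follows: Adgre1 -0.50 to 0.36, Aif1 -0.31 to 0.16, Akr1d1 -0.077 to 0.43, Ctss -0.22 to 0.051, Cyp11a1 -0.063 to 0.039, Cyp11b1 -0.082 to 0.055, Cyp11b2 -0.10 to 0.27, Ddc -0.29 to 0.033, Dhcr7 -0.72 to 0.21, Efna4 -0.060 to 0.27, Efna5 -0.10 to 0.068, Efnb1 -0.072 to 0.22, Epha2 -0.74 to 0.079, Epha3 -0.14 to 0.84, Gch1 -0.25 to 0.088, Pts -0.068 to 0.29, Slc18a2 -0.60 to 0.052, Star -0.070 to 0.077 and Tm7sf2 -0.12 to 0.25. The mean of probes could not be applied to single probes. Signal over background limits Ephb6, which 0 of 3 castrated KO arrays detected.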

Other observations

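The gene with the largest difference of all 10375 was Gpnmb, a membrane glycoprotein of macrophages and lipid-laden cells, and it was named after its value was seen. It read 8.91, 7.03 and 6.88 on the castrated KO arrays and 9.67, 10.33 and 11.52 on the castrated WT arrays. The groups did not overlap, yet the wild types themselves were spread widely. The difference was -2.90 (SE 0.98, limma adjusted p = 0.751), or -3.55 without KO array 1, and it ran from -3.55 to -2.39 when each castrated array was left out in turn. In intact males Gpnmb differed by -0.40 and in females by 0.13.

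Respiratory chain complex I genes had a median of 0.00 over 31 genes and 3 higher at an unadjusted p under 0.05, or 1 without KO array 1, where 3.27% and 1.40% of all genes were. Ribosomal protein genes had a median of 0.02 over 20 genes. The median over 8 red blood cell genes was 0.26, and 0.31 without KO array 1.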
